A study of Mus musculus with 5 samples.

Results

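The nuclear receptors other than the steroid hormone receptors were followed across 5 libraries of stromal cells sorted from the mouse oviduct. The members were the rows of the expression table that carry the symbols of 40 listed receptors, out of 23857 genes listed. Steroid hormone receptors and Nr5a1 were not among them. All 40 symbols had a row, and 37 passed the filter on low values (1 TPM or more in 2 libraries or more) and were tested. TPM (a transcript abundance in which each library sums to 1000000) is a gene's share of the library corrected for transcript length, so that levels can be compared between genes.

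Each library was made from 1 young adult female mouse by bulk RNA sequencing of YFP-positive cells. All 5 mice carried Pdgfra-Cre, a recombinase driven by the promoter of a mesenchymal gene, and R26Y, a reporter that makes YFP in cells where the recombinase has acted. The 2 control mice, labelled 2 and 3, had these alleles on a background labelled wild-type, and the 3 mice of the other group, labelled 1, 2 and 3, also carried Esr1(fl/fl), floxed alleles of the gene of estrogen receptor alpha. The comparison asks which genes differ in these cells when Esr1 is deleted in them. Because each library came from a separate mouse, the spread between libraries includes that between animals.

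Some facts of the libraries touch every result below. Esr1 itself was at 83.3 and 77.6 TPM in controls 2 and 3, against 28.9, 85.0 and 170 TPM in libraries labelled knockout 1, 2 and 3, so it lay below the controls only in knockout 1. Per-gene totals cannot tell transcripts with and without the floxed sequence apart, and every direction below refers to the labels. The sorted cells held the stromal markers Pdgfra, Col1a1 and Dcn, but also markers of other cells. The summed TPM of 10 epithelial markers was 2808 and 3110 in the controls and 2014, 11742 and 12717 in knockout 1, 2 and 3. Ovgp1, the oviductal glycoprotein gene, made up between 75.6% and 90.7% of it, and the other 9 summed to 535 and 648 in the controls and 492, 1087 and 1460 in the same order. That of 10 immune markers was 4455 and 4798 in the controls and 3696, 2224 and 1250 in knockout 1, 2 and 3. The libraries held between 15841 (knockout 3) and 19432 genes (control 3) at 1 TPM or more, and the table gives no read totals. Genes of the stromal list summed to 23838 and 19279 TPM in the controls against 16330, 12856 and 14803 TPM in the same order. Of 6 mesothelial markers, Msln, Upk3b, Lrrn4 and Upk1b lay below both controls in all 3 and Wt1 above them. All 5 of these passed without knockout 1 (limma), where 7.98% of all genes did. In bulk RNA, fewer cells of a type and less RNA per cell cannot be told apart.

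Nuclear receptors are transcription factors that bind DNA through paired zinc fingers, and many are switched by small fat-soluble ligands. The receptors for thyroid hormone, retinoic acid, vitamin D, fatty acids (PPARs) and oxysterols (LXRs) bind DNA as heterodimers with a retinoid X receptor, hold co-repressors when unliganded and recruit co-activators when the ligand is bound. Others, called orphan receptors, act without a known physiological ligand, among them the COUP-TFs of mesenchyme and the NR4A receptors, which are immediate early genes whose transcription starts within minutes of a stimulus. REV-ERB and ROR receptors compete for the same DNA element in the circadian clock.

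The start-site regions of the NR4A genes are shown because all 3 receptors lay below both controls in knockout 2 and 3. The sequences are the 250 bases before a RefSeq transcript start of each gene on build GRCm38.p6. They lie at chr15:101266596-101266845 (plus strand) for Nr4a1, chr2:57124004-57124253 (minus strand) for Nr4a2 and chr4:48045055-48045304 (plus strand) for Nr4a3. They are written 5′ to 3′ along the gene, and capitals mark TGACG on either strand, the half-site of the cyclic AMP response element (CRE).
Nr4a1: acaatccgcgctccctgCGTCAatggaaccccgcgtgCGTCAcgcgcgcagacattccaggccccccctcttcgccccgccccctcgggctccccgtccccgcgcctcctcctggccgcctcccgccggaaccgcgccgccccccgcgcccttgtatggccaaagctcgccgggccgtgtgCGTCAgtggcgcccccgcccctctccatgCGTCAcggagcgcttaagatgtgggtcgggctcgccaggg
Nr4a2: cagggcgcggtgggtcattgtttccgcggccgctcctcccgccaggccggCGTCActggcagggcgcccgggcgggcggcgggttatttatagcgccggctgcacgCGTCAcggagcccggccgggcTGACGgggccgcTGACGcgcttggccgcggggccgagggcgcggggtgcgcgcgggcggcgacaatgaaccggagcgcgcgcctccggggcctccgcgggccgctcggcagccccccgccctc
Nr4a3: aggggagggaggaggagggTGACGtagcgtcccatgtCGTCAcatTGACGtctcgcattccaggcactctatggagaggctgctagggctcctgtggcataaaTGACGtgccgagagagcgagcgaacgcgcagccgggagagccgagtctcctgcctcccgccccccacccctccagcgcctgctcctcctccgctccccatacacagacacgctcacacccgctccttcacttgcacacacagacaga

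Each of the 3 sequences held 4 such half-sites. Their first bases lay at -233, -213, -69 and -40 relative to that transcript start in Nr4a1, at -200, -144, -123 and -111 in Nr4a2 and at -231, -213, -205 and -147 in Nr4a3. The annotated Nr4a1 gene runs from 101253902 to 101274795, so its window lies inside the gene. The annotated Nr4a3 gene starts at 48045078, within its window. Of the 40 receptors, 38 had such windows in RefSeq, 58 windows in all, and 12 of these (20.7%) held TGACG at least once, against 17.8% of 32851 windows of all genes. At least 4 occurrences, a number chosen after these sequences were seen, were found in 0.137% of all windows and in 3 of the receptor windows, those of the 3 NR4A genes. All patterns were searched on both strands. The E-box CACGTG was in 6.90% of receptor windows against 6.02% of all, and the half-site AGGTCA that many of these receptors bind was in 19.0% against 14.02%. The longer AAAGGTCA, the NR4A monomer site, which contains AGGTCA, was in 2 receptor windows, of Rxra and Rxrg (3.45% against 1.34% of all). A single window each held the full CRE TGACGTCA (1.55% of all windows) and the D-box TTATGNAA (3.07%). The NR5A site CAAGGTCA (1.33% of all windows), the ROR element (0.493%), the estrogen response element, an inverted repeat of GGTCA (0.0639%), and the direct repeats of AGGTCA known as DR1 (0.0609%), DR4 (0.0152%) and DR5 (0.0304%), the first A left free in DR1 and DR5, were in 0 receptor windows. TGACGTCA contains TGACG, so these counts overlap. A match describes letters in a window and is not a bound site.

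In the controls, 8 receptors had a mean of at least 50 TPM: Nr4a1, Nr1d1, Nr2f2, Thra, Nr1h2, Nr1d2, Nr4a3 and Rarg, in falling order. Another 6 lay between 20 and 50 TPM (Nr4a2, Nr2c2, Rara, Rxrb, Rxra and Nr2f6), 11 between 5 and 20 TPM, and 15 below 5 TPM. Nr4a1, at 440 ± 80.7 TPM (SD, n = 2), stood at percentile 98.9 of the control levels of all tested genes, and Nr1h2, at 74.6 ± 8.23 TPM (SD, n = 2), at percentile 91.5. Nr4a1 was above Nr1d1 in both controls, and Nr1d1 above Nr2f2. Thra, Nr1h2 and Nr1d2 followed at 77.9, 74.6 and 70.4 TPM. The control values of Nr1h2 overlapped those of both neighbours, while both controls of Thra lay above both of Nr1d2. By the mean of the libraries labelled knockout the first 3 places were the same, though Nr1d1 was above Nr4a1 in knockout 3 and Nr2f2 above Nr1d1 in knockout 1. By that mean Nr5a2 had moved from place 23 to 9, and Nr4a2 and Nr4a3 from 9 and 7 to 17 and 12. Together the 40 receptors took 1326 and 1435 TPM in the controls and 1349, 1302 and 1323 TPM in knockout 1, 2 and 3.

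**Figure D1:**
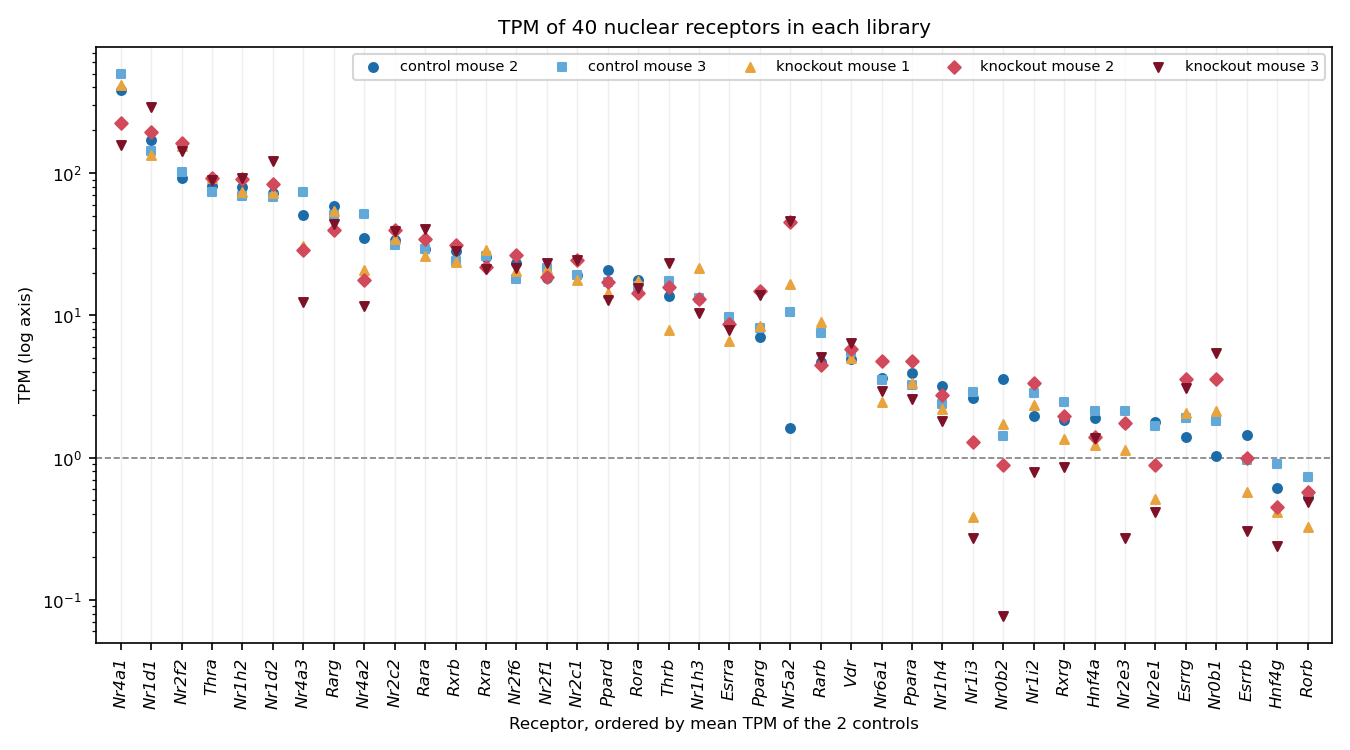
TPM of the 40 receptors in each of the 5 libraries (log axis, 1 point per library, dashed line at 1 TPM), ordered by the mean of the 2 controls. Most receptors have the 5 points close together, while Nr5a2 runs from 1.61 to 45.8 TPM and the lowest receptors spread downward, mainly in knockout 3.

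Between the groups, the receptors furthest apart were Nr5a2, Nr0b1, Nr2f2 and Pparg on the higher side of libraries labelled knockout. On the lower side they were Nr4a3, Nr4a2, Nr1i3, Nr0b2 and Nr4a1. Thra, Nr1h2, Rxra and Rxrb had log2 fold changes within 0.25 of zero. None of the 37 tested receptors passed an adjusted p of 0.05 (limma on log2(TPM + 1), Benjamini-Hochberg over 19292 genes), where 0.0259% of all tested genes did (0.0104% higher and 0.0156% lower). The lowest adjusted p among them was 0.187, of Nr4a2. At an unadjusted p under 0.05 there were 7 receptors (18.9%, with 3 higher and 4 lower in libraries labelled knockout), against 13.6% of all tested genes (3.7% higher and 9.87% lower). The median log2 fold change was -0.026 over the receptors and -0.022 over all tested genes. The groups did not overlap for 15 receptors (40.5%) against 33.9% of all genes, with 7 higher (18.9% against 11.9%) and 8 lower (21.6% against 21.9%). For 11 more receptors, knockout 2 and 3 lay on the same side of both controls and knockout 1 did not (29.7%, against 28.7% of all genes). With the library of knockout 1 left out, 5 of 37 receptors passed (13.5%, against 7.98% of all genes, 5.35% higher and 2.63% lower). These were Nr5a2, Nr2f2 and Pparg higher and Nr4a1 and Nr4a2 lower. That fit leaves out the only library labelled knockout with Esr1 below both controls. The ones it keeps, knockout 2 and 3, had Esr1 at 85.0 and 170 TPM and epithelial sums above both controls. Without knockout 3 no receptor passed, where 0.0104% of all genes did, all of them lower. Library weights called Nr2f2 higher and Nr4a2 lower, where 3.4% of all genes passed (1.35% higher and 2.05% lower). That fit gave knockout 1 the lowest weight, 0.329, against 0.703 to 1.89 for the other libraries. The mouse number as a block called Nr5a2 and Nr2f2 higher and the 3 NR4A genes lower, where 9.63% of all genes passed (6.04% higher and 3.59% lower). No control shares the number of knockout 1, so the block gives the same log2 fold changes as leaving knockout 1 out. It is therefore not a separate check of that fit.

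**Figure D2:**
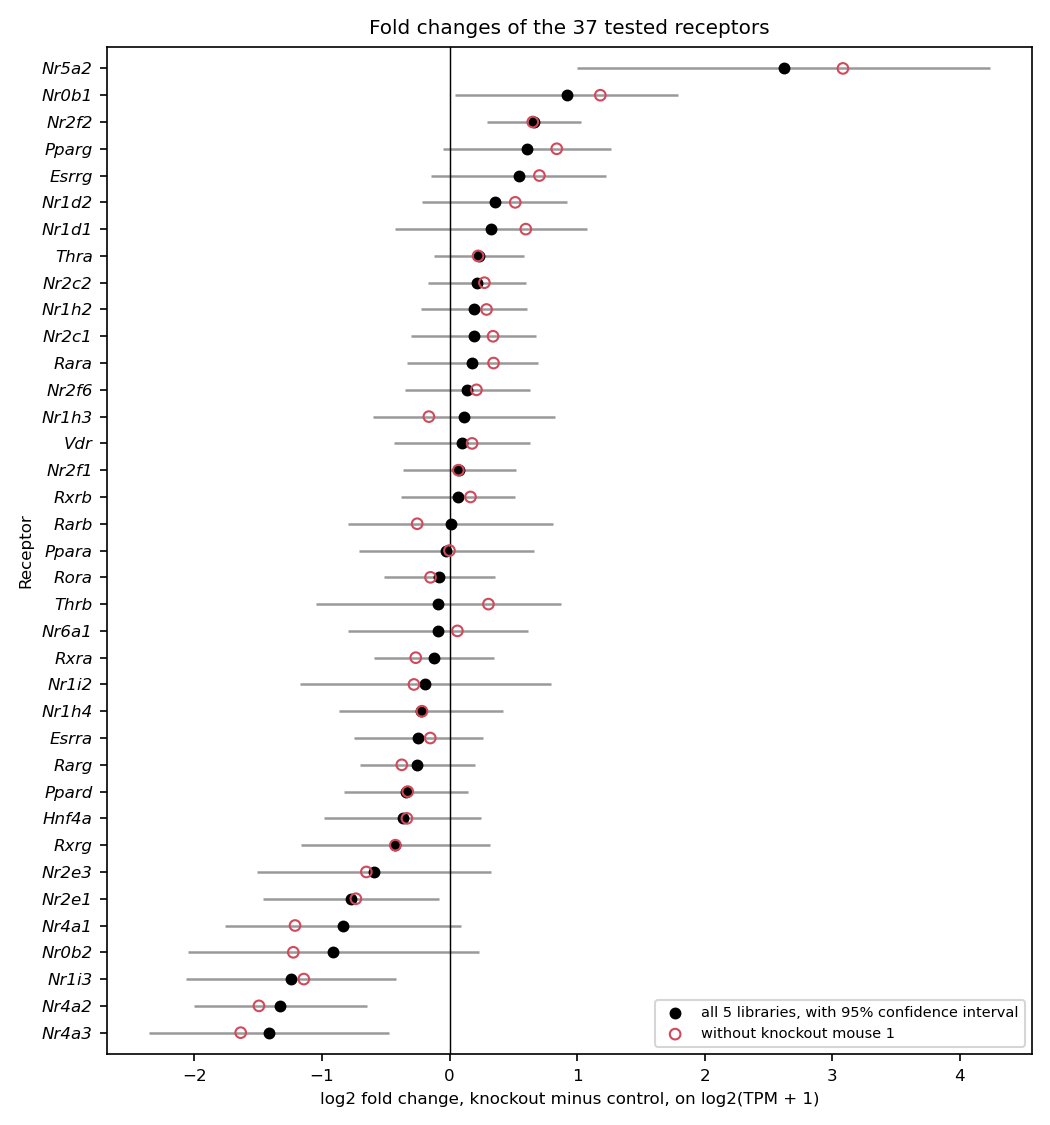
Log2 fold change of the 37 tested receptors, libraries labelled knockout minus control, on log2(TPM + 1), as black points with their 95% confidence interval, and without knockout 1 as open circles. Nr5a2 lies furthest to the right at 2.62 and Nr4a3 furthest to the left at -1.42, and 19 receptors lie within 0.25 of zero.

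Thyroid hormone receptors were represented mainly by Thra, the isotype that most tissues express. Thra measured 81.8 and 74.1 TPM in the controls, against 92.0, 92.2 and 89.9 TPM in knockout 1, 2 and 3. All 3 libraries labelled knockout lay above both controls, by 0.23 ± 0.15 (SE) on the log2 scale (adjusted p 0.507 by limma). Thrb, the isotype that feeds back on thyrotropin in the pituitary, measured 13.6 and 17.3 TPM in the controls, against 7.93, 15.9 and 23.2 TPM in the libraries labelled knockout, on both sides of the controls. Its log2 fold change of -0.088 was 0.30 without knockout 1. Thra thus made up between 79.5% and 92.1% of the family's TPM in each library. Thra and Nr1d1 lie tail to tail on chromosome 11 and share 1075 bases (98767932 to 98769006). Whether the authors' counting used strand is not given in the sources used here, so reads from the shared stretch may be split between them.

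Of 9 genes of thyroid hormone transport, deiodination and response, all tested, 0 passed the threshold and 2 were at an unadjusted p under 0.05, both lower. Dio2, the deiodinase that makes active thyroid hormone inside cells, measured 31.2 and 16.8 TPM in the controls, against 2.70, 5.92 and 8.32 TPM in knockout 1, 2 and 3. All 3 values lay below both controls (log2 fold change -1.95 ± 0.44 SE, adjusted p 0.192 by limma). Hr, a thyroid hormone-responsive co-repressor, averaged 7.92 ± 0.82 TPM in controls (SD, n = 2) against 4.34 ± 0.53 TPM in libraries labelled knockout (SD, n = 3), a difference of -0.74 on the log2 scale (limma adjusted p 0.264). The transporter gene Slc16a10 also lay below both controls in all 3, at a log2 fold change of -0.59 (limma adjusted p 0.378). Without knockout 1, Dio2 passed lower (log2 fold change -1.58, limma adjusted p 0.0412) and Thrsp, a thyroid hormone-responsive gene of lipid synthesis, passed higher (1.86, limma adjusted p 0.0132). Thrsp was at 30.7 and 37.8 TPM in the controls, 23.2 TPM in knockout 1 and 119 and 134 TPM in knockout 2 and 3. The libraries with high Thrsp were those with high epithelial sums, and the part of epithelial RNA in Thrsp was not tested.

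Among retinoic acid receptors, Rarg, prominent in mesenchyme and skin, was the highest. It measured 58.9 and 50.8 TPM in the controls, against 54.1, 39.9 and 44.2 TPM in knockout 1, 2 and 3. Knockout 2 and 3 lay below both controls and knockout 1 between them (log2 fold change -0.26 ± 0.19 SE, adjusted p 0.552 by limma). Rara, the broadly expressed isotype, had means of 29.3 and 33.8 TPM, and Rarb, itself induced by retinoic acid in many cells, of 6.07 and 6.23 TPM in control and labelled knockout libraries. Rarg's share of the family was 63.5% and 58.0% in the controls and 60.5%, 50.5% and 49.2% in knockout 1, 2 and 3. Rara's was 31.5%, 33.5%, 29.4%, 43.8% and 45.1% in the same order. Knockout 2 and 3, the libraries with the high epithelial sums, thus had more Rara and less Rarg relative to each other than the rest. The part of epithelial RNA in this was not tested.

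Of 10 genes linked to retinoic acid response, all tested, 0 passed, with 3 at an unadjusted p under 0.05. Stra6, a receptor for retinol-binding protein that takes up retinol, measured 32.3 and 27.7 TPM in the controls, against 11.5, 14.8 and 13.8 TPM in knockout 1, 2 and 3 (log2 fold change -1.11 ± 0.19 SE, adjusted p 0.132 by limma). Cyp26b1, which breaks down retinoic acid, measured 4.15 and 8.83 TPM in the controls, against 18.5, 18.2 and 18.9 TPM in libraries labelled knockout (log2 fold change 1.46 ± 0.29 SE, adjusted p 0.160 by limma). Both separated the groups without overlap, Stra6 below and Cyp26b1 above the controls, and both passed without knockout 1 (limma adjusted p 0.0248 and 0.0479). Hoxb1 was low, at 2.23 and 2.22 TPM in the controls and 0.780, 1.47 and 0.474 TPM in the others (log2 fold change -0.79, limma adjusted p 0.355). Cyp26a1, picked out with its values known, measured 14.3 and 7.15 TPM in the controls, 4.17 TPM in knockout 1 and 61.7 and 77.8 TPM in knockout 2 and 3, and passed higher without knockout 1 (log2 fold change 2.66, limma adjusted p 0.0152). The libraries with high Cyp26a1 were those with high epithelial sums, and the part of epithelial RNA in it was not tested.

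Retinoid X receptors, the shared partners, summed to 54.5 ± 2.38 TPM in controls (SD, n = 2) against 53.1 ± 2.56 TPM in libraries labelled knockout (SD, n = 3). Rxrb (26.4 and 27.7 TPM) and Rxra (25.98 and 24.0 TPM) were about equal, and Rxrg, an isotype of muscle and brain, was at 2.16 and 1.39 TPM. The 95% confidence interval of the log2 fold change ran from -0.38 to 0.51 for Rxrb and from -0.60 to 0.35 for Rxra. The sum of the 3 partners thus differed between the groups by less than the spread within either.

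The PPARs, fatty acid sensors, summed to 30.2 and 30.7 TPM, but the isotypes did not keep their proportions. Pparg, the isotype of adipocyte formation, measured 7.005 and 8.15 TPM in the controls, against 8.44, 14.7 and 13.9 TPM in knockout 1, 2 and 3. All 3 lay above both controls, knockout 1 by little (log2 fold change 0.61 ± 0.28 SE, adjusted p 0.390 by limma). Without knockout 1 the log2 fold change was 0.84 and the adjusted p 0.0479 (limma). Ppard, the broadly expressed isotype, measured 20.8 and 17.3 TPM in the controls, against 14.4, 17.2 and 12.9 TPM in libraries labelled knockout (log2 fold change -0.34, limma adjusted p 0.478). Pparg made up 22.1% and 28.5% of the family in the controls and 32.3%, 40.1% and 47.4% in knockout 1, 2 and 3, and Ppard 65.5%, 60.2%, 55.0%, 46.8% and 43.8%. These shares did not overlap between the groups. Knockout 2 and 3, with the highest Pparg shares, were also the libraries with the high epithelial sums. The part of epithelial RNA in the shares was not tested. Ppara, the isotype of liver and brown fat, was at 3.57 TPM in both groups.

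Markers of adipocytes were low: the summed TPM of 8 such genes was 24.1 and 20.5 in the controls and 19.3, 20.5 and 12.2 in knockout 1, 2 and 3. Their defining genes Adipoq, Plin1 and Cidec were at most 5.77 TPM in any library, and none was at 0. Of 16 PPAR target genes, all tested, 0 passed, and 3 were at an unadjusted p under 0.05. Acadm, a mitochondrial enzyme of fatty acid oxidation, averaged 38.9 ± 0.70 TPM in controls (SD, n = 2) against 59.3 ± 4.76 TPM in libraries labelled knockout (SD, n = 3) (log2 fold change 0.59 ± 0.16 SE, adjusted p 0.219 by limma). Fabp4, a fatty acid binding protein of adipocytes, macrophages and capillaries, measured 49.2 and 23.6 TPM in the controls, against 16.3, 18.6 and 17.2 TPM in the others (log2 fold change -0.94, limma adjusted p 0.291). The target list had 8 genes higher and 8 lower, with a median log2 fold change of 0.080.

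**Figure D3:**
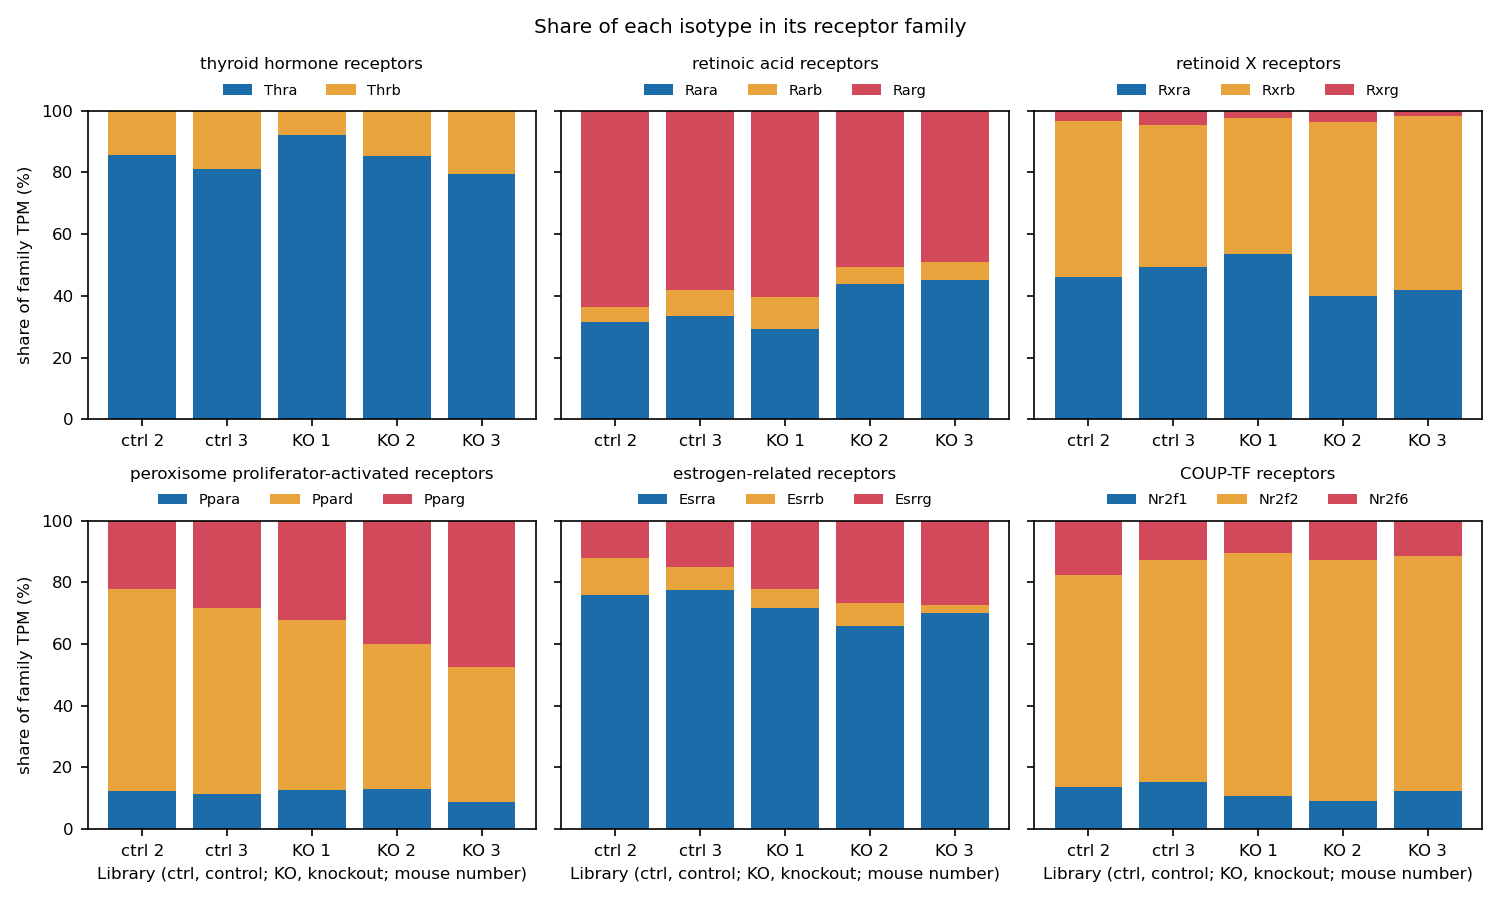
Share of each isotype in the summed TPM of its family (stacked bars to 100%, 1 bar per library) for 6 receptor families. Pparg's share goes from 22.1% and 28.5% in the controls to between 32.3% and 47.4% in the libraries labelled knockout, and Rxra and Rxrb each lie between 39.9% and 56.6%.

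The oxysterol receptor Nr1h2 (LXR beta), the broadly expressed isotype, measured 80.4 and 68.8 TPM in the controls, against 73.9, 90.5 and 91.8 TPM in knockout 1, 2 and 3. Knockout 1 lay between the controls and the others above them (log2 fold change 0.19 ± 0.18 SE, adjusted p 0.620 by limma). Nr1h3 (LXR alpha), an isotype of macrophages, liver and fat, measured 13.1 and 13.3 TPM in the controls, against 21.4, 13.1 and 10.4 TPM in the others. Its log2 fold change of 0.11 was -0.16 without knockout 1. Of 11 LXR targets, all tested, 0 passed and 2 were at an unadjusted p under 0.05. Srebf1, the regulator of fatty acid synthesis, averaged 22.2 ± 0.56 TPM in controls (SD, n = 2) against 31.4 ± 1.03 TPM in libraries labelled knockout (SD, n = 3) (log2 fold change 0.48, limma adjusted p 0.293). Scd2, a fatty acid desaturase, lay above both controls as well (0.44, limma adjusted p 0.393), and Mylip, which marks the LDL receptor for breakdown, below them (-0.42, limma adjusted p 0.368). Abca1, the cholesterol exporter, had overlapping groups at means of 88.4 and 82.8 TPM.

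The bile acid, vitamin D and xenobiotic receptors were low. Nr1h4 (FXR) had means of 2.79 and 2.25 TPM, Vdr of 5.26 and 5.71 TPM and Nr1i2 (PXR) of 2.41 and 2.16 TPM in control and labelled knockout libraries, all with overlapping groups. Nr1i3 (CAR), a xenobiotic sensor of liver, measured 2.62 and 2.91 TPM in the controls, against 0.381, 1.28 and 0.274 TPM in knockout 1, 2 and 3. The groups did not overlap (log2 fold change -1.24 ± 0.35 SE, adjusted p 0.233 by limma), and the gene shares 1044 bases with Tomm40l on chromosome 1. Of 6 genes of vitamin D breakdown, activation and response, 0 passed (limma) and 0 were at an unadjusted p under 0.05. Cyp24a1 and Cyp27b1, which inactivate and activate vitamin D, were both low and lay below the controls in all 3 libraries labelled knockout, at log2 fold changes of -0.66 and -0.55 (limma adjusted p 0.370 and 0.425).

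In the controls the clock receptors were the second most abundant family by summed TPM, after the NR4A group. Nr1d1 (REV-ERB alpha), a clock repressor whose RNA swings widely over the day, measured 170 and 143 TPM in the controls, against 133, 193 and 290 TPM in knockout 1, 2 and 3. Nr1d2 (REV-ERB beta) measured 72.8 and 68.0 TPM in the controls, against 72.0, 83.6 and 122 TPM in the same order. Knockout 2 and 3 lay above both controls for each gene and knockout 1 did not (log2 fold changes 0.32 and 0.35, standard errors 0.32 and 0.24, limma adjusted p 0.637 and 0.520). Rora, an activator at the same element, averaged 16.8 ± 1.14 TPM in controls (SD, n = 2) against 15.8 ± 1.51 TPM in libraries labelled knockout (SD, n = 3), and Rorb, a receptor of brain and retina, stayed under 1 TPM in every library and was not tested.

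Of 15 clock genes, all tested, 0 passed, and 2 were at an unadjusted p under 0.05, both higher. Bhlhe41, a repressor of the CLOCK complex, measured 9.07 and 9.79 TPM in the controls, against 16.2, 20.7 and 33.5 TPM in knockout 1, 2 and 3 (log2 fold change 1.17 ± 0.30 SE, adjusted p 0.214 by limma). Hlf, a D-box activator, measured 18.3 and 24.5 TPM in the controls, against 31.9, 35.0 and 50.2 TPM in the others (0.82, limma adjusted p 0.261). Both were above the controls in all 3 libraries and highest in knockout 3. A pair of further genes, picked out with their values known, set knockout 3 apart too. Dbp, a D-box activator, was at 195 TPM in knockout 3 against 77.8 to 92.5 TPM in the other 4 libraries, and Nfil3, the D-box repressor, at 11.7 TPM there and 19.5 TPM in knockout 2, against 38.5 to 41.8 TPM in the other 3. Without knockout 1, Nfil3 passed lower (log2 fold change -1.34, limma adjusted p 0.0326) and Bhlhe41 higher (1.39, limma adjusted p 0.0317). The groups overlapped for core oscillator genes, with Per1 at 53.6 and 51.6 TPM, Per2 at 18.8 and 19.6 TPM and Arntl (Bmal1) at 17.2 and 15.2 TPM in control and labelled knockout libraries. The labels give no time of day of tissue collection.

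COUP-TF receptors, orphan regulators of mesenchymal identity, were led by Nr2f2 (COUP-TFII), known as a mediator of stromal-epithelial signalling in the uterus. Nr2f2 measured 92.0 and 101 TPM in the controls, against 156, 162 and 143 TPM in knockout 1, 2 and 3. The 3 libraries labelled knockout lay close together and above both controls (1.59-fold, log2 fold change 0.66 ± 0.16 SE, adjusted p 0.197 by limma). Its 95% confidence interval ran from 0.29 to 1.03, and its log2 fold change stayed between 0.59 and 0.73 with any 1 library left out. It passed without knockout 1 (limma adjusted p 0.0374). The epithelial sum was lowest in knockout 1, where Nr2f2 was as high as in the other 2, and the immune sum was below the controls in all 3. The part of other cell types in the Nr2f2 values was not tested. The related Nr2f1 (19.9 and 21.0 TPM) and Nr2f6 (20.8 and 22.97 TPM) had overlapping groups. A long non-coding gene, B130024G19Rik, shares 1364 bases with Nr2f2 on chromosome 7.

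Among the remaining orphan receptors, Nr2c2, Nr2c1 and Esrra had log2 fold changes within 0.25 of zero. Nr2c2 (TR4) measured 33.7 and 31.1 TPM in the controls, against 34.6, 39.7 and 38.9 TPM in knockout 1, 2 and 3, above both controls by 0.21 ± 0.16 (SE) on the log2 scale (adjusted p 0.556 by limma), and it shares 3547 bases with Mrps25 on chromosome 6. Nr2c1 (TR2) had means of 19.2 and 22.3 TPM with overlapping groups. Esrra, the estrogen-related receptor of mitochondrial genes, averaged 9.33 ± 0.67 TPM in controls (SD, n = 2) against 7.75 ± 1.06 TPM in libraries labelled knockout (SD, n = 3). Esrrg, its relative of oxidative tissues, measured 1.40 and 1.90 TPM in the controls, against 2.07, 3.56 and 3.06 TPM in knockout 1, 2 and 3, above both controls at a low level (log2 fold change 0.54 ± 0.29 SE, adjusted p 0.438 by limma). Its family share went from 12.01% and 15.01% to 22.3%, 26.8% and 27.3%. Esrrb, a receptor of embryonic stem cells, was at 1.203 and 0.623 TPM on average and was not tested.

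The NR4A receptors stood out at the lower side. Nr4a1 measured 383 and 497 TPM in the controls, against 413, 223 and 158 TPM in knockout 1, 2 and 3. Nr4a2 measured 35.1 and 51.3 TPM in the controls, against 20.8, 17.8 and 11.7 TPM in the others. Nr4a3 measured 51.1 and 74.1 TPM in the controls, against 30.9, 29.0 and 12.5 TPM in the others. For Nr4a2 and Nr4a3 all 3 libraries labelled knockout lay below both controls, and for Nr4a1 knockout 1 lay between them. The log2 fold changes were -0.83, -1.33 and -1.42 for Nr4a1, Nr4a2 and Nr4a3, with standard errors of 0.39, 0.29 and 0.40 and adjusted p of 0.396, 0.187 and 0.235 (limma). Without knockout 1, Nr4a1 and Nr4a2 passed (-1.21 and -1.49, limma adjusted p 0.0314 and 0.0309) and Nr4a3 did not (-1.64, limma adjusted p 0.0562). LOC105244150, annotated as protein-coding, shares 670 bases with Nr4a2 on chromosome 2.

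Other genes that respond to stimulation and tissue dissociation had lower values in the same libraries. Of 16 such genes, all tested, 0 passed and 3 were at an unadjusted p under 0.05, all lower, as were 9.87% of all tested genes. A log2 fold change below 0 was found for 15 of the 16 (median -0.52, against -0.022 over all tested genes). Atf3, a stress-induced transcription factor, measured 394 and 475 TPM in the controls, against 351, 225 and 180 TPM in knockout 1, 2 and 3 (log2 fold change -0.83, limma adjusted p 0.321). Klf4 and Egr2, both immediate early transcription factors, lay below the controls in all 3 (-0.70 and -0.52, limma adjusted p 0.286 and 0.322). Without knockout 1, as for Nr4a1 and Nr4a2, 4 of the 16 passed lower: Dusp1, Klf4, Atf3 and Hspa1a (limma adjusted p 0.0173, 0.0183, 0.0246 and 0.0253). In that fit 2.63% of all genes passed lower. The summed TPM of the 16 genes was 13460 and 14840 in the controls and 13892, 8919 and 7266 in knockout 1, 2 and 3. Nr4a1 and this sum put the 5 libraries in the same order. Nr4a2 and Nr4a3 differed from the list in knockout 1, where they were at 0.48 and 0.49 of the control mean while the sum lay between the controls. The immune sum lay under both controls in knockout 1, 2 and 3, most in knockout 2 and 3. The part of handling or of immune cells in the NR4A values was not tested.

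**Figure D4:**
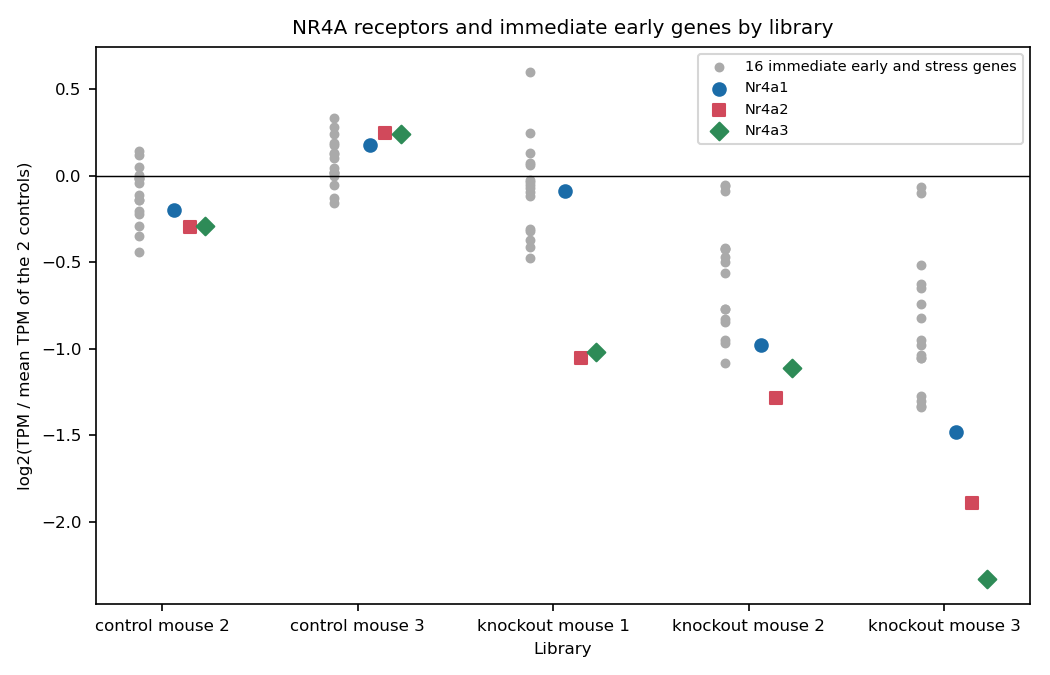
Log2 of TPM over the mean of the 2 controls, for the 3 NR4A receptors (coloured) and 16 immediate early and stress genes (grey), by library. In knockout 1, Nr4a2 and Nr4a3 lie below the grey points while Nr4a1 lies among them, and in knockout 3 all 3 receptors lie below all grey points.

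Nr5a2 (LRH-1), an orphan receptor of ovarian granulosa cells, liver and gut, had the largest log2 fold change of the receptors. It measured 1.61 and 10.6 TPM in the controls, against 16.7, 45.4 and 45.8 TPM in knockout 1, 2 and 3. All 3 libraries labelled knockout lay above both controls, and the controls themselves differed 6.55-fold. On the log2 scale the difference was 2.62 ± 0.68 (SE, adjusted p 0.214 by limma), and it ranged from 1.55 without control 2 to 3.69 without control 3. It passed without knockout 1 (3.08, limma adjusted p 0.0430). Nr0b1 (DAX-1), a repressor of the NR5A receptors that has no zinc-finger domain, measured 1.03 and 1.81 TPM in the controls, against 2.13, 3.57 and 5.42 TPM in the same order (log2 fold change 0.92 ± 0.37 SE, adjusted p 0.354 by limma). Nr0b2 (SHP), a related repressor, measured 3.60 and 1.41 TPM in the controls, against 1.73, 0.882 and 0.0776 TPM in knockout 1, 2 and 3, with overlapping groups. Nr0b1's share of the pair's TPM was 22.3% in control 2 and 98.6% in knockout 3. Nr6a1, the germ cell receptor GCNF, had means of 3.58 and 3.40 TPM.

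Genes of ovarian granulosa and steroid-making cells were measured beside them. Of 8 such genes, all tested, 0 passed and 4 were at an unadjusted p under 0.05, all higher, as were 3.7% of all tested genes. The median log2 fold change of the 8 was 1.51. Their summed TPM was 64.5 and 164 in the controls and 184, 247 and 306 in knockout 1, 2 and 3, the order of the libraries for Nr5a2 and Nr0b1. In the fit without knockout 1, Foxl2, Amh and Inha passed higher (limma adjusted p 0.0161, 0.0319 and 0.0487), where 5.35% of all genes did. Inha, the inhibin alpha subunit, measured 9.39 and 38.7 TPM in the controls, against 65.7, 111 and 136 TPM in the others. Amh, anti-Müllerian hormone of granulosa cells, was at 1.76 and 4.73 TPM and at 13.7, 23.8 and 14.6 TPM, and Foxl2, a granulosa regulator also expressed in some Müllerian stroma, at 17.0 and 16.6 TPM and at 21.1, 39.3 and 36.5 TPM. Star, which carries cholesterol into mitochondria for steroid synthesis, lay the other way, at 24.5 and 33.6 TPM in the controls and 20.4, 22.4 and 13.1 TPM in knockout 1, 2 and 3 (log2 fold change -0.63, limma adjusted p 0.374). Cyp11a1, the side-chain cleavage enzyme, had overlapping groups at 5.37 and 53.5 TPM in the controls and 18.6, 34.0 and 30.3 TPM in the others. The groups also overlapped for Cyp19a1, at 0.959 and 2.00 TPM in the controls and 7.33, 1.58 and 16.2 TPM in the others. So they did for Inhba, at 4.66 and 12.4 TPM in the controls and 31.3, 7.02 and 52.6 TPM in the others. The defining genes Foxl2, Amh and Cyp19a1 were at 0 in 0 libraries. Epithelial markers were high in knockout 2 and 3, where Nr5a2 was highest, and lowest in knockout 1, where Nr5a2 was above both controls. The part of ovarian or epithelial RNA in the Nr5a2, Nr0b1 and Pparg values was not tested.

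**Figure D5:**
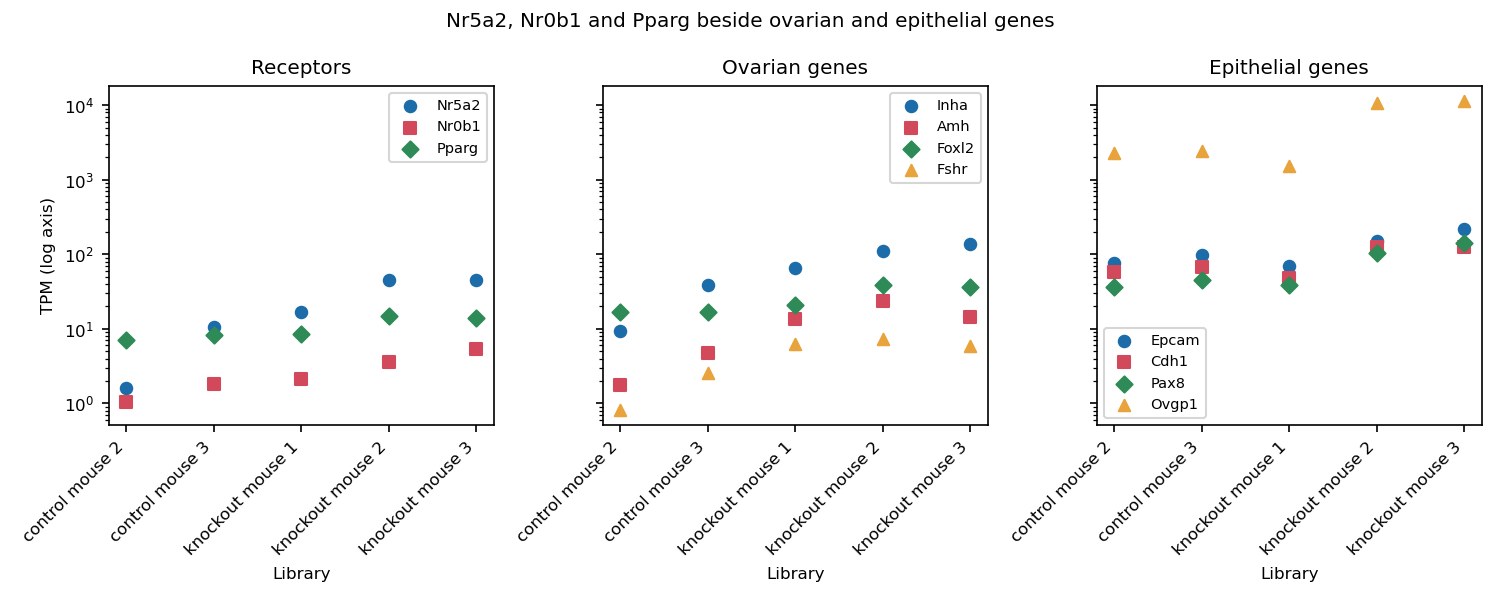
TPM (log axis) of Nr5a2, Nr0b1 and Pparg (left), 4 ovarian genes (middle) and 4 epithelial genes (right), with 1 point per gene and library. The ovarian genes drawn are Inha, Amh, Foxl2 and Fshr, the 4 of 8 with all libraries labelled knockout above both controls. Nr5a2 and Inha both go up from control 2 to control 3 and are above both controls in all 3 libraries labelled knockout, whereas the epithelial genes other than Pax8 are lowest in knockout 1.

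The lowest receptors leaned downward as low genes did in general. Of 12 tested receptors with a control mean between 1 and 5 TPM, 10 had a log2 fold change below 0, as did 78.5% of all 6189 tested genes in that range, and 8 had their lowest value in knockout 3, as did 53.1% of those genes. Nr2e1, a receptor of neural stem cells, measured 1.79 and 1.66 TPM in the controls, against 0.509, 0.891 and 0.418 TPM in knockout 1, 2 and 3 (log2 fold change -0.77 ± 0.29 SE, adjusted p 0.341 by limma). Nr2e3, a photoreceptor gene, measured 1.76 and 2.14 TPM in the controls, against 1.13, 1.76 and 0.271 TPM in the others, with knockout 2 next to control 2 (log2 fold change -0.59 ± 0.39 SE, adjusted p 0.508 by limma). Hnf4a, a regulator of liver and gut epithelium, had means of 2.02 and 1.34 TPM, and Hnf4g, its paralog, stayed under 1 TPM in every library and was not tested. For the 25 receptors with a control mean of 5 TPM or more, the median log2 fold change was 0.097, against 0.078 for all 12726 tested genes in that range.

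Many receptors showed no difference that these 5 libraries could resolve. For 19 of the 37 tested receptors the log2 fold change was within 0.25 of zero. Among the 7 of these with a control mean of at least 20 TPM (Thra, Nr1h2, Nr2c2, Rara, Rxrb, Rxra and Nr2f6), the 95% confidence intervals lay within -0.60 and 0.69. Over all 19 they reached from -1.18 to 0.87, so that differences of that size remain possible for the lower ones.

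Co-regulators were the flattest of the gene lists measured. Of 18 co-repressors and co-activators, all tested, 0 passed (limma) and 0 were at an unadjusted p under 0.05, and the log2 fold changes ran from -0.29 to 0.28 with a median of 0.023. Ncor1, the co-repressor held by unliganded receptors, averaged 58.1 ± 2.45 TPM in controls (SD, n = 2) against 58.6 ± 3.81 TPM in libraries labelled knockout (SD, n = 3). Ncoa2, a p160 co-activator, lay above both controls in all 3 (log2 fold change 0.15, limma adjusted p 0.666), and its relative Ncoa3 and the less related Ncoa4 below them (-0.13 and -0.15, limma adjusted p 0.698 and 0.653). Ppargc1a, the PPAR and ERR co-activator of mitochondrial genes, was low at 3.40 and 2.85 TPM. The median log2 fold change was 0.12 over the clock genes, -0.28 over the LXR targets and -0.020 over the retinoic acid targets. It was -0.29 over the thyroid hormone genes and -0.44 over the vitamin D genes, beside -0.022 over all tested genes. Of the vitamin D list, Cyp24a1, Cyp27b1, Cyp2r1 and Trpv6 had control means between 1 and 5 TPM. The median over all tested genes in that range was -0.40.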

How the data were processed

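RNA was measured in 5 libraries of sorted oviductal stromal cells, prepared with a low-input SMARTer kit per the labels. The deposited values are TPM per gene, and each library sums to 1000000. STAR is named by the authors' table, with no version given in the sources used here, and per the submitters' processing notes the build was mm10. The gene counter, annotation, strand setting and filters are not given in the sources used here. The table keeps no read totals, so the depth is unknown and no counting intervals are given.

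On the log2(TPM + 1) scale, limma 3.58.1 (R 4.3.3) compared the groups with lmFit and eBayes (trend on), group being the only term. The 19292 genes that reached 1 TPM in 2 libraries or more entered. Tests were two-sided, with Benjamini-Hochberg adjustment over all of these genes and a threshold of 0.05. Fold changes on this scale understate those of low genes. The fit was tested on simulated data. Each library came from another mouse, so the p-values rest on a spread between libraries that includes the spread between mice. Spearman's rho across genes ran from 0.940 to 0.969.

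Full statistics are given for receptors among the 10 highest in controls, those past the threshold in the fit or without any 1 library, and those with separate groups and an absolute log2 fold change of at least 0.5. Of each pathway list, at most 3 genes with separate groups and the smallest p are named, and none passed. A gene of the PPAR target list that this rule names is not reported here. Abca1, Cyp26a1, Dbp, Dusp1, Hspa1a, Nfil3, Thrsp, Per1, Per2, Arntl, Ncor1 and Ppargc1a lie outside this rule and were picked with their values known. The members and lists were chosen with earlier results of these data known. Dnai1, of 8 ciliated-cell markers, matched no row by that symbol. Ciliated (277 to 461 TPM summed), endothelial (187 to 294), smooth muscle (433 to 636), mesothelial (464 to 1014, of which Krt19 made up 29.04% to 53.8%), glial and neuronal (52.3 to 152) and oocyte markers (4.83 to 11.7) were also summed per library. Gene positions and start-site windows are RefSeq's for GRCm38.p6, the assembly that mm10 names. No window was matched for Thra and Hnf4g. Python 3.11.15 with pandas 2.3.3 made the tables. The alternatives were another pseudocount, other filters and scalings, weights per library, a block for the mouse number and leaving out each library in turn.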

Additional observations from a re-analysis of the deposited data

How the results depend on the processing

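The number of receptors past the threshold, 0 of 37, was 2 with library weights (Nr2f2 higher and Nr4a2 lower) and between 0 and 5 when 1 library was left out, 5 without knockout 1 and 0 in the other 4 fits. The number of genes past it, 5, was 0 with a pseudocount of 0.1 (limma, 2233 genes under 0.05 unadjusted), 0 where the mean had to reach 5 TPM (limma, 1389 genes under 0.05 unadjusted), 3 with no filter, 2 with median-of-ratios scaling and 656 with library weights. It ran from 0 to 1524 when 1 library was left out: 1524 without knockout 1, 2 without knockout 3 and 0 without knockout 2, control 2 or control 3 (2423, 1032 and 1067 genes at an unadjusted p under 0.05). Where a control was left out, the lone control was assumed to vary like the other group. The median log2 fold change of all genes moved from -0.022 to 0.099 where the mean had to reach 5 TPM, which leaves out low genes. Among genes at an unadjusted p under 0.05, 713 were higher and 1904 lower, against 1195 and 1378 after quantile normalization and 1290 and 1726 after median-of-ratios scaling.

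With the mouse number as a replicate block, 1858 genes and 5 receptors passed (Nr5a2 and Nr2f2 higher, Nr4a1, Nr4a2 and Nr4a3 lower). Only mice 2 and 3 occur in both groups and carry this fit. Its log2 fold changes thus equal those without knockout 1 (-1.21 for Nr4a1 in both). Deviations from the group means correlated at -0.060 and -0.072 for mouse 2 and mouse 3. The libraries share only a number.

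Receptors whose sign turned all had a log2 fold change between -0.42 and 0.14 and did not pass. After quantile normalization Rxrb was -0.030, Nr2f1 -0.0095, Nr6a1 0.20, Ppara 0.27, Nr1h4 0.16, Nr1i2 0.27, Rxrg 0.039 and Hnf4a 0.083. With library weights Thrb was 0.067, Nr1h3 -0.0063, Rarb -0.20, Nr6a1 0.13, Ppara 0.13 and Nr1i2 0.0092. With the replicate block Thrb was 0.30, Nr1h3 -0.16, Rarb -0.25 and Nr6a1 0.061. Ppara was 0.0082 with median-of-ratios scaling and Rarb -0.043 without Rpph1 and Rn45s, 2 non-coding RNAs. Over the fits without 1 library, ranges that crossed zero were -0.046 to 0.17 for Rxrb, -0.040 to 0.32 for Nr2f6, -0.037 to 0.19 for Nr2f1, -0.41 to 0.30 for Thrb, -0.16 to 0.33 for Nr1h3, -0.28 to 0.30 for Rarb, -0.31 to 0.061 for Nr6a1, -0.21 to 0.13 for Ppara and -0.46 to 0.17 for Nr1i2. The cause was not tested. In all, 257 of 284 receptor values under other settings and 165 of 183 without 1 library had the direction and the call of the reported value. So did 102 of 108 values of the named pathway genes without 1 library. Those genes were named for groups that do not overlap, so leaving out 1 library could not turn their direction.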
